A study of Mus musculus with 5 samples.

Results

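Natural killer (NK) cells of mouse lungs that carried breast cancer metastases were examined by single-cell RNA sequencing. They were the cells that the authors assigned by hand to the class named NK Cells, and they numbered 700 of 23852 cells in 5 libraries. Female BALB/c mice, 6 weeks old at the start, received 200 µL of tumor-secreted factors (TSF) or of control medium (CM) intravenously, 3 times per week for 3 weeks. TSF is medium conditioned for days by pieces of resected mammary tumors, whereas CM was incubated without tumor. All mice were then given 25000 4T1 cells intravenously. This mouse mammary carcinoma line carried CD90.1, a variant of Thy1, as a reporter. Lungs were taken at day 11 (mice of 10 weeks) or at day 16 (mice of 11 weeks), with no sort for NK cells stated. The study's methods describe perfusion of lungs through the right ventricle, which washes blood from the vessels, before dissociation. Only the TSF lungs of day 11 were run as 2 libraries, called a and b, and the other groups as 1. Libraries a and b were taken as 1 sample with their mean, since the dissociated lungs of 3 mice per group were pooled before libraries were made. No difference between groups therefore has a replicate check or a p-value. The intervals given are 95% exact intervals and cover counting error within the libraries, not differences between mice.

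NK cells are innate lymphocytes that kill stressed or transformed cells without prior priming to an antigen. Receptors such as NKG2D bind stress ligands on a target and trigger the release of perforin and granzymes, whereas receptors for MHC class I hold the cell back. In the lung they patrol the vessels and are known to limit seeding by circulating tumor cells. Cytokines such as IL-15 sustain them, and TGF-beta restrains them.

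The expression of single cells was not analysed here, so the label could not be checked against the level of its markers, and it rests on the annotation by the authors. The markers are Nkg7 (ENSMUSG00000004612, a granule membrane protein; GRCm38 chromosome 7, 43437073 to 43438249, plus strand), Klrb1c (ENSMUSG00000030325, the lectin-like receptor NKR-P1C; chromosome 6, 128778485 to 128789215, minus strand), Gzma (ENSMUSG00000023132, granzyme A; chromosome 13, 113093825 to 113100981, minus strand) and Ncr1 (ENSMUSG00000062524, the activating receptor NKp46; chromosome 7, 4337724 to 4345164, plus strand). All 4 are among the 1000 highly variable genes from which the authors built the map of cells, which make up 4.21% of 23771 genes. Of a longer list of 11 NK genes, which adds Prf1 (perforin), Gzmb (granzyme B), the receptor genes Klrk1, Klrd1 and Il2rb, and the transcription factors Eomes and Tbx21, all 11 carry that flag. Of 24 genes of the killer cell lectin-like receptor (Klr) family on chromosome 6 in the gene table, 12 carry it. The map was thus laid out with the NK genes among its inputs, and T cell markers (5 of 6) and B cell markers (4 of 4) were also flagged.

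The authors drew their fine clusters on that map and gave classes to clusters, so the closeness of NK cells to each other on it follows from how the label was made and is no check of it. For all 700 NK cells, each of the 15 nearest cells was also an NK cell. The nearest annotated cells of another class were T cells in all 700 cases, at a distance of at least 0.214, against a median of 0.00404 to the fifteenth neighbour. Nearer than these, at a distance of at least 0.0602, lay 6 cells that the authors had set aside as doublets. They had a median of 3035.5 UMIs (unique molecular identifiers, counts of captured RNA molecules), with 1 or 2 cells in each library. NK cells came from 3 of the authors' fine clusters, numbered 15, 30 and 66, and, by the same construction, no cell of these clusters in the 5 libraries had another class. No NK cell shared its barcode with an NK cell of another library. Over 10 pairs of libraries, 14 to 46 barcodes were shared among all cells, so few matches between NK cells could arise. Summed over the pairs, 17 shared barcodes belonged to an NK cell in 1 library and to a cell of another class in the other.

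The first comparison was the abundance of NK cells after TSF and after CM. At day 11, 78 of 3738 annotated cells of CM lungs were NK cells, a share of 2.09% (interval 1.65 to 2.60%). In TSF lungs NK cells were 178 of 5113 in library a, or 3.48% (interval 3.00 to 4.02%), and 192 of 4804 in library b, or 4.00% (interval 3.46 to 4.59%). Both TSF intervals lay above that of CM, and the mean TSF share was 1.79-fold that of CM (interval 1.40 to 2.31). Libraries a and b differed by a factor of 1.15 (interval 0.931 to 1.42). At day 16, NK cells were 110 of 3567 cells after CM, or 3.08% (interval 2.54 to 3.71%), and 142 of 4896 cells after TSF, or 2.90% (interval 2.45 to 3.41%). These overlapped, with a ratio of 0.940 (interval 0.728 to 1.22).

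**Figure D1:**
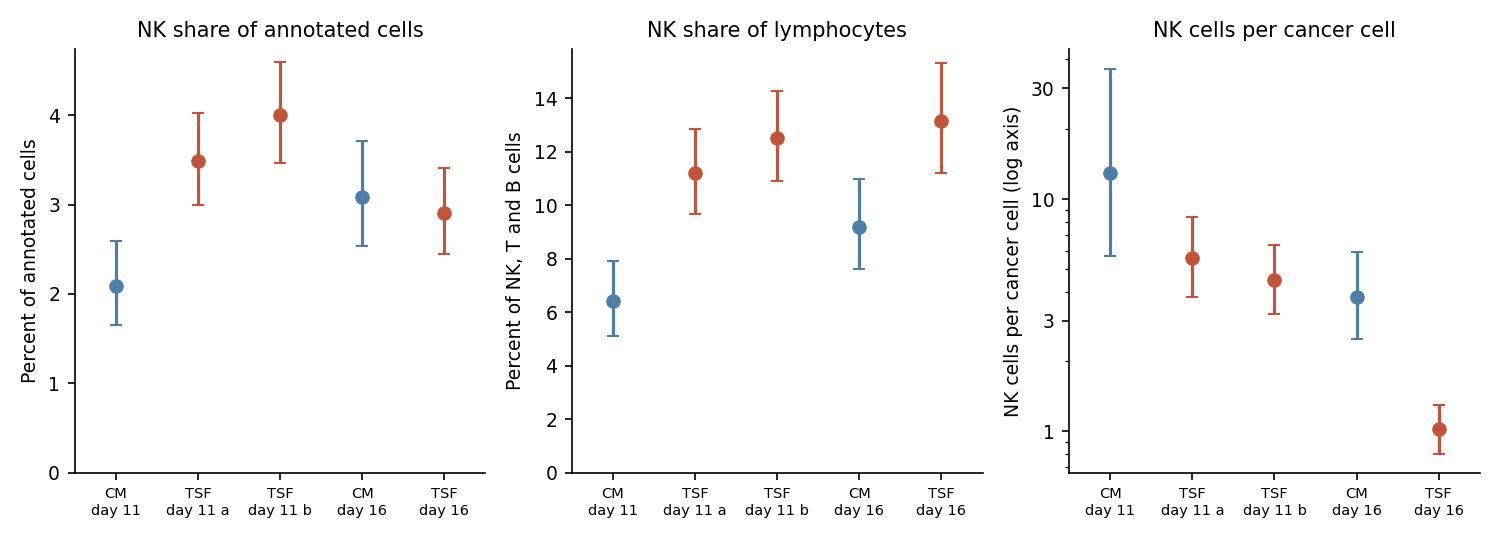
NK cells of each library as a percent of annotated cells (left), as a percent of NK, T and B cells together (middle) and per cancer cell (right, log axis), with CM libraries in blue, TSF libraries in red and 95% exact intervals as bars. The lymphocyte share is higher in the TSF libraries of both days, whereas the share of annotated cells is higher after TSF at day 11 alone, and TSF at day 16 has the lowest number of NK cells per cancer cell.

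A share depends on what else was in the library. Granulocytes were 29.1% of annotated cells in TSF lungs of day 16, 6.00% in CM lungs of that day and 4.47 to 4.93% at day 11. NK cells were therefore also set against the other lymphocytes. NK cells made up 6.40% of NK, T and B cells together in the CM library of day 11 (interval 5.09 to 7.93%). They made up 11.2% and 12.5% in TSF libraries a and b (intervals 9.67 to 12.8% and 10.9 to 14.3%). At day 16 the lymphocyte share was 9.20% after CM (interval 7.62 to 11.0%) and 13.1% after TSF (interval 11.2 to 15.3%). On this scale TSF libraries exceeded the CM library of the same day at both days, by 1.85-fold at day 11 (interval 1.44 to 2.39) and 1.43-fold at day 16 (interval 1.11 to 1.85).

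Against T cells alone, the lymphocytes closest to NK cells, the picture was similar. There were 0.136 NK cells per T cell in the CM library of day 11 (78 NK and 572 T cells), and 0.244 (a) and 0.289 (b) in those of TSF. At day 16 there were 0.168 NK cells per T cell after CM (110 NK and 656 T cells) and 0.249 after TSF (142 NK and 571 T cells). The ratio of TSF to CM was 1.96 at day 11 (interval 1.49 to 2.57) and 1.48 at day 16 (interval 1.12 to 1.97). Per B cell, it was 1.98 at day 11 (interval 1.51 to 2.61) and 1.51 at day 16 (interval 1.13 to 2.03).

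The result of day 16 turned with the denominator. With all immune cells, granulocytes included, as the denominator, NK cells were 4.58% after TSF and 6.03% after CM, with TSF at 0.760 of CM (interval 0.588 to 0.983). Leaving out granulocytes and cancer cells gave 1.29 (interval 0.997 to 1.67). At day 11 TSF was 1.86-fold CM among immune cells and 1.81-fold with granulocytes and cancer cells left out. When only cells with at least 2000 UMIs were counted, the ratio was 1.46 at day 11, where the interval from 0.952 to 2.30 includes 1. At day 16 it was 0.639 (interval 0.419 to 0.968). This cut kept unequal parts of the NK cells of day 16, whose median was 2005 UMIs in CM and 1569 in TSF. The part of depth in this ratio was not tested.

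The second comparison was between the days. In CM lungs the NK share of annotated cells was 1.48-fold higher at day 16 than at day 11 (interval 1.10 to 2.00). Per T cell this ratio was 1.23 (interval 0.891 to 1.70), which includes 1. In TSF lungs the NK share was lower at day 16, at 0.776 of its mean at day 11 (interval 0.636 to 0.946), and with library a alone at day 11 it was 0.833 (interval 0.663 to 1.04). Without granulocytes it was 1.04 of the mean of day 11 (interval 0.855 to 1.27), and per T cell 0.933 (interval 0.748 to 1.17). Per B cell it was 1.43 (interval 1.13 to 1.79). The direction in TSF lungs thus depended on the denominator.

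The number of NK cells per cancer cell gives the ratio of effector to target cells in the same suspension. It was 13.0 in the CM library of day 11, which held only 6 cancer cells (interval 5.71 to 36.5). In TSF libraries a and b it was 5.56 (interval 3.8 to 8.38) and 4.47 (interval 3.19 to 6.37). At day 16 it was 3.79 after CM (110 NK and 29 cancer cells, interval 2.50 to 5.93) and 1.02 after TSF (142 NK and 139 cancer cells, interval 0.803 to 1.30). The TSF value was 0.386 of the CM value at day 11 (interval 0.131 to 0.911), and with library a alone 0.428 (interval 0.141 to 1.10). It was 0.269 at day 16 (interval 0.162 to 0.440). At each day the TSF libraries thus held fewer NK cells per cancer cell, although they held more NK cells per T cell.

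The third comparison was the make-up of the NK cells themselves. The 3 fine clusters were laid out by the authors from the expression of the same cells, and the genes that set them apart were not analysed here. They are described by number and carry no name of a subset. Fine cluster 15 held 285 NK cells, fine cluster 30 held 259 and fine cluster 66 held 156. Clusters 15 and 30 adjoined each other on the map, and cluster 66 lay below them, with few cells in between. Cells of cluster 66 had fewer UMIs, with a median of 1275.5 against 1873 in cluster 15 and 1663 in cluster 30.

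**Figure D2:**
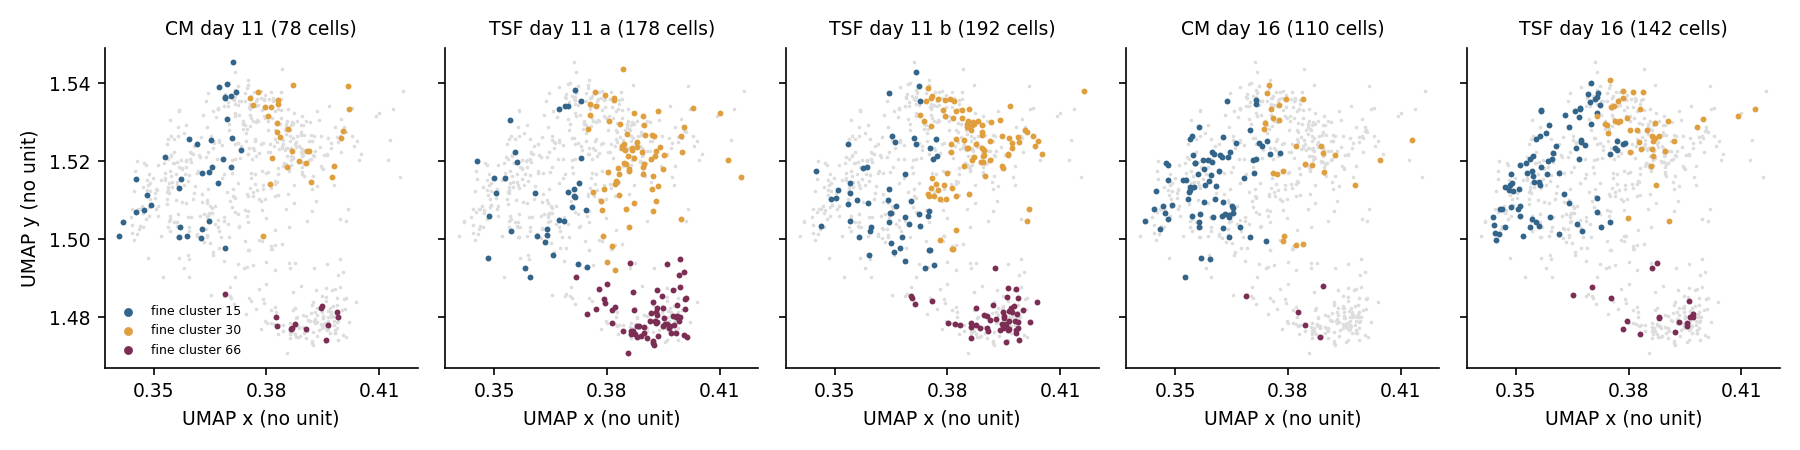
Position of the NK cells on the UMAP map of all cells (axes without unit), with 1 panel per library, the NK cells of that library coloured by fine cluster and those of all 5 libraries in grey. Cluster 66, at the lower right, holds 69 and 51 cells in TSF libraries a and b of day 11, and 13, 5 and 18 cells in CM of day 11, CM of day 16 and TSF of day 16.

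Fine cluster 15 made up most NK cells at day 16 and fewer at day 11. It held 46.2% of NK cells in CM of day 11 (36 of 78, interval 34.8 to 57.8%), 19.7% in TSF library a (35 of 178, interval 14.1 to 26.3%) and 27.6% in TSF library b (53 of 192, interval 21.4 to 34.5%). At day 16 it held 70.9% in CM (78 of 110, interval 61.5 to 79.2%) and 58.5% in TSF (83 of 142, interval 49.9 to 66.7%). The share of day 16 was 1.54-fold that of day 11 in CM lungs (interval 1.02 to 2.35) and 2.47-fold in TSF lungs (interval 1.80 to 3.36). At day 11 the TSF share was 0.512 of the CM share (interval 0.346 to 0.782), and at day 16 it was 0.824 (interval 0.598 to 1.14). The intervals of these ratios treat the cells of a cluster as rare events, so they are too wide for shares this large. An interval that includes 1 is therefore no sign that the shares were alike.

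Fine cluster 66 showed the reverse order. It held 16.7% of NK cells in CM of day 11 (13 cells, interval 9.18 to 26.8%), 38.8% in TSF library a (69 cells, interval 31.6 to 46.3%) and 26.6% in TSF library b (51 cells, interval 20.5 to 33.4%). At day 16 it held 4.55% in CM (5 cells, interval 1.49 to 10.3%) and 12.7% in TSF (18 cells, interval 7.69 to 19.3%). The TSF share was 1.96-fold that of CM at day 11 (interval 1.10 to 3.76), and 1.59-fold with library b alone (interval 0.854 to 3.19). It was 2.79-fold at day 16, where the interval from 0.998 to 9.61 includes 1. Between libraries a and b, cluster 66 differed by a factor of 0.685 (interval 0.468 to 0.998), so part of its spread at day 11 lies within 1 group. In TSF lungs its share at day 16 was 0.388 of that at day 11 (interval 0.224 to 0.644). Fine cluster 30 held 37.2% of NK cells in CM, 41.6% in TSF library a and 45.8% in TSF library b at day 11. At day 16 it held 24.5% in CM and 28.9% in TSF.

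**Figure D3:**
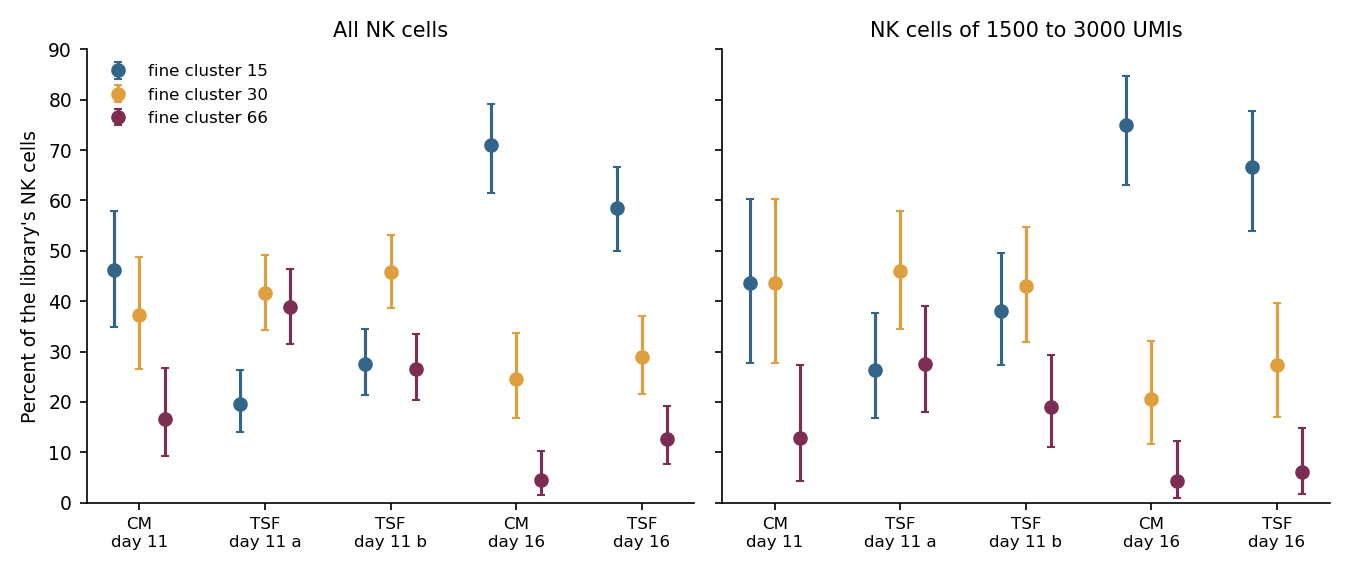
Percent of each library's NK cells in fine clusters 15, 30 and 66, with 95% exact intervals as bars, for all NK cells (left) and for NK cells of 1500 to 3000 UMIs (right). Cluster 15 holds the largest share in both libraries of day 16 in both panels. The share of cluster 66 is highest in the TSF libraries of day 11, but in the right panel their bars overlap that of CM of day 11.

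Taken as shares of all annotated cells, the NK cells that TSF lungs held in excess at day 11 fell in clusters 30 and 66. Cluster 66 made up 0.348% of annotated cells in CM of day 11 against 1.35% (a) and 1.06% (b) in TSF lungs, a mean ratio of 3.47 (interval 1.96 to 6.72). Cluster 30 made up 0.776% in CM against 1.45% (a) and 1.83% (b) in TSF lungs, a mean ratio of 2.11 (interval 1.41 to 3.24). Cluster 15 made up 0.963% in CM and 0.685% and 1.10% in the TSF libraries, so the CM value lay between them, and the ratio was 0.928 (interval 0.619 to 1.40). Between the days, cluster 15 went from 0.963% to 2.19% of annotated cells in CM lungs, a ratio of 2.27 (interval 1.51 to 3.47). In TSF lungs it went from a mean of 0.894% to 1.70%, a ratio of 1.90 (interval 1.40 to 2.61). The larger NK share of CM lungs at day 16 therefore lay in cluster 15, since cluster 30 had 0.776% and 0.757% at the 2 days and cluster 66 had 0.348% and 0.140%.

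Because cluster 66 held shallow cells, the clusters were compared again among 328 NK cells of 1500 to 3000 UMIs. In this range cluster 15 held 43.6% in CM of day 11 (17 of 39 cells), 26.3% and 38.0% in TSF libraries a and b, 75% in CM of day 16 (51 of 68 cells) and 66.7% in TSF of day 16 (44 of 66 cells). The difference between days in TSF lungs remained beyond counting error, at 2.07-fold (interval 1.35 to 3.16). The difference between days in CM lungs was 1.72-fold, with a ratio interval from 0.977 to 3.18 that includes 1. The intervals of the shares themselves did not overlap, at 27.8 to 60.4% in CM of day 11 and 63.0 to 84.7% in CM of day 16. The ratio of TSF to CM for cluster 15 at day 11 was 0.737, with a ratio interval from 0.420 to 1.37 that includes 1. Cluster 66 then held 12.8% in CM of day 11, 27.6% and 19.0% in TSF libraries a and b, 4.41% in CM of day 16 and 6.06% in TSF of day 16. Its ratio of TSF to CM was 1.82 at day 11 (interval 0.709 to 5.91) and 1.37 at day 16 (interval 0.232 to 9.38). Both intervals include 1, with 5 and 3 cells of cluster 66 in the CM libraries. The ratio intervals in this range are again too wide, so they do not show that shares were alike. Between the days in TSF lungs its ratio was 0.260 (interval 0.0675 to 0.728).

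The authors also clustered the NK cells on their own, which gave 47 sub-clusters of 1 to 72 cells in these libraries. There were 13 sub-clusters of at least 20 cells, and they held 495 of the 700 cells. Sub-cluster 9 was nearly all from day 11, with 4 cells in CM, 16 in TSF library a and 18 in TSF library b, against 0 in CM and 1 in TSF at day 16. Sub-cluster 4 had 4, 17 and 12 cells in those libraries of day 11 and 2 in each library of day 16. Sub-cluster 7 went the other way, with 5 cells in CM, 1 in TSF library a and 0 in TSF library b at day 11, and 7 in CM and 14 in TSF at day 16. Sub-cluster 1 held 7.69% of NK cells in CM, 6.18% in TSF library a and 4.69% in TSF library b at day 11, and 20.9% in CM and 16.2% in TSF at day 16. Sub-clusters 7 and 5 lay mainly in fine cluster 15 (25 of 27 and 27 of 29 cells), whereas sub-cluster 8, with 1 cell in CM, 13 and 10 cells in the TSF libraries of day 11 and 0 and 5 cells at day 16, lay in clusters 66 (19 cells) and 30 (10 cells). These counts are small, and sub-clusters were chosen for mention after their values were seen.

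Sub-cluster 19 stood out by depth. Its 15 cells had a median of 6347 UMIs and 2056 genes, and 10 of them had more than 5000 UMIs. They came from all libraries, with 4 cells in CM, 4 in TSF library a and 4 in TSF library b at day 11, and 1 in CM and 2 in TSF at day 16. In all, 17 NK cells had over 5000 UMIs, between 2 and 5 in each library, and the highest had 18315 UMIs. The authors set aside doublets by joint markers of several cell types, and whether these deep cells are doublets or large cells was not tested. Leaving out the NK cells over 5000 UMIs kept every share ratio of NK cells and fine clusters within its main interval.

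**Figure D4:**
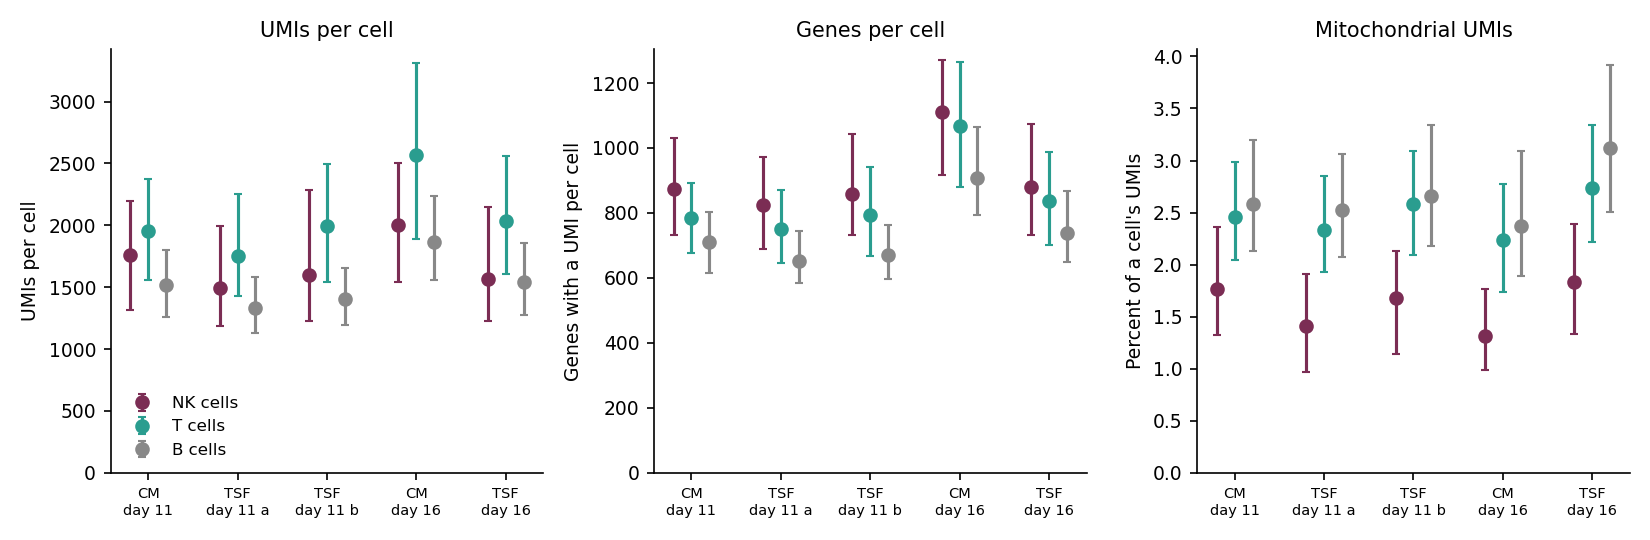
UMIs per cell (left), genes with a UMI per cell (middle) and percent of mitochondrial UMIs (right) in NK, T and B cells of each library, as medians over cells with bars from the lower to the upper quartile. NK cells have fewer UMIs but more genes than T cells and the lowest mitochondrial percent of the 3 classes in every library.

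The fourth comparison was the RNA content of NK cells beside that of T and B cells. NK cells had a median of 1759 UMIs in CM of day 11, 1494.5 and 1595.5 in TSF libraries a and b, 2005 in CM of day 16 and 1569 in TSF of day 16. In every library this was below the T cell median, at 0.770 to 0.900 of it, and above the B cell median, at 1.02 to 1.16 of it. Among 12 classes NK cells had the third lowest median in 4 libraries and the second lowest in TSF of day 16. Despite fewer UMIs they had more genes than T cells, by 1.04 to 1.11 times. The medians were 874.5 genes in CM of day 11, 823.5 and 857 in TSF libraries a and b, 1112 in CM of day 16 and 879 in TSF of day 16.

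The CM library of day 16 stood apart in this measure. Among NK cells of 1500 to 3000 UMIs, it had a median of 1134 genes, against 972 in CM of day 11, 963 in TSF library a, 959 in library b and 1014 in TSF of day 16. The same library was also highest for T cells in that range (991 genes, against 791 to 855 in the other libraries) and for B cells (955 genes, against 774.5 to 833). The difference was thus shared by other lymphocytes of this library, and the part of the library in the NK values of day 16 was not tested. Depth within the range was not equal either. The median of NK cells there was 2099.5 UMIs in CM of day 16, against 1873 to 1980 in the other libraries. For T cells it was 2323 against 1961 to 2101, and for B cells 2005 against 1685 to 1783.5. The part of this remaining depth in the gene counts was not tested.

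Mitochondrial UMIs made up a small part of NK cell RNA. The median was 1.77% in CM of day 11, 1.41% and 1.68% in TSF libraries a and b, 1.32% in CM of day 16 and 1.83% in TSF of day 16. These were 0.590 to 0.719 of the T cell medians. The higher value of TSF than CM at day 16 was also present in T cells (2.74% against 2.23%) and in B cells (3.12% against 2.37%).

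The last comparison looked at the cancer cells that the NK cells would meet, in 139 cancer cells of TSF and 29 of CM at day 16. Their median depth was 26615 UMIs after TSF and 27679 UMIs after CM. The reporter CD90.1, by which the authors assigned these cells, was seen in 48 of the TSF cells and 2 of the CM cells, so few single CM cells carried it. Values are the means by the authors in CP10k (UMIs per 10000 UMIs of a cell), and differences are on the log2(CP10k + 0.1) scale, which understates those of low genes. Of 34 listed genes that act on NK cells, 33 were in the table and 26 had a UMI in at least 10% of cancer cells of either library. Of these, 9 were at least 2-fold lower in the TSF library, where 4.86% of 10201 genes were, and 1, Ccl5, was at least 2-fold higher, where 1.59% were. The median log2 difference over the 26 genes was -0.68, against -0.13 over the 10201 genes. Of the 26, 5 (Ccl5, Cd274, Cdh1, Cxcl9 and Raet1e) passed in 1 library only, and such genes tend to differ by the filter itself. Among the 21 that passed in each library, 8 were at least 2-fold lower in TSF, where 4.79% of 9061 genes were, and 0 were higher, where 1.3% were. With 1 library per group none of this has a test. The lists were also chosen with earlier results of these data known, so the shares over all genes are given beside the counts for description only.

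Among ligands that activate NK cells, 6 of 9 passed the filter and 2 were at least 2-fold lower in TSF, where 4.86% of all genes that passed were. Ulbp1, a ligand of NKG2D, had 0.416 CP10k in CM and 0.120 in TSF, and was seen in 37.9% of CM cells (interval 20.7 to 57.7%) and 26.6% of TSF cells (interval 19.5 to 34.8%). Pvr, the ligand of DNAM-1 and TIGIT, had 0.493 CP10k in CM and 0.168 in TSF, and was seen in 58.6% (interval 38.9 to 76.5%) and 30.9% of cells (interval 23.4 to 39.3%). H60b, another NKG2D ligand, was seen in 31.0% of CM cells and 32.4% of TSF cells. The adhesion ligand Icam1 lay on the other side, with 0.0906 CP10k in CM and 0.257 in TSF, a log2 difference of 0.90.

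Of 6 ligands that inhibit NK cells and passed, 4 were at least 2-fold lower in TSF, where 4.86% of all genes that passed were. Of these 4, Cd274 passed the filter through the CM library only, where it was high, so its place in the count follows partly from the filter. The MHC class I genes H2-K1 and H2-D1 had 28.9 and 34.9 CP10k in CM, and 13.0 and 15.7 in TSF, with log2 differences of -1.15 for each. These genes are close paralogs, so reads could be split between them. H2-T23, which encodes the Qa-1 molecule read by CD94 and NKG2A, had 2.16 CP10k in CM and 0.942 in TSF. Cd274, the gene of PD-L1, had 0.899 CP10k in CM and 0.0341 in TSF, and was seen in 14 of 29 CM cells (48.3%, interval 29.4 to 67.5%) and 9 of 139 TSF cells (6.47%, interval 3.00 to 11.9%). The intervals of the share of cells did not overlap for Cd274, nor for H2-T23, at 96.6% of CM cells (interval 82.2 to 99.9%) and 73.4% of TSF cells (interval 65.2 to 80.5%). They overlapped for Cdh1, the E-cadherin gene and ligand of KLRG1, at 6.90% of CM and 25.2% of TSF cells.

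Of 6 genes for death receptors and for protection from granules, none differed by 2-fold. Among all genes that passed, 4.86% were at least 2-fold lower and 1.59% higher, so with 6 genes this count does not set them apart. The largest differences were those of Cflar, with 0.766 CP10k in CM and 0.369 in TSF, and Tnfrsf1a, with 1.26 and 0.722. Fas had 0.110 and 0.0712. Serpinb9, an inhibitor of granzyme B, was the only gene of this list with a higher mean in TSF, at 0.155 CP10k in CM and 0.208 in TSF. Of 12 chemokines and cytokines that act on NK cells, 8 passed the filter. Cxcl10, which attracts NK cells through CXCR3, had 1.87 CP10k in CM and 0.258 in TSF, and was seen in 37.9% (interval 20.7 to 57.7%) and 12.9% of cells (interval 7.86 to 19.7%). Il15ra, which presents IL-15 to NK cells, had 0.326 and 0.0889 CP10k, and was seen in 48.3% (interval 29.4 to 67.5%) and 20.9% of cells (interval 14.4 to 28.6%). Neither pair of intervals overlapped. Cx3cl1 had 0.859 CP10k in CM and 0.304 in TSF. Ccl5 was listed at 0 in CM and had 0.428 CP10k in TSF, where it was seen in 15 of 139 cells (10.8%, interval 6.17 to 17.2%). In CM, 0 of 29 cells allows a share of up to 10.3% by 3 counts and 11.9% by the exact interval, and both limits lie within the TSF interval, so the difference was not detectable with this number of cells.

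**Figure D5:**
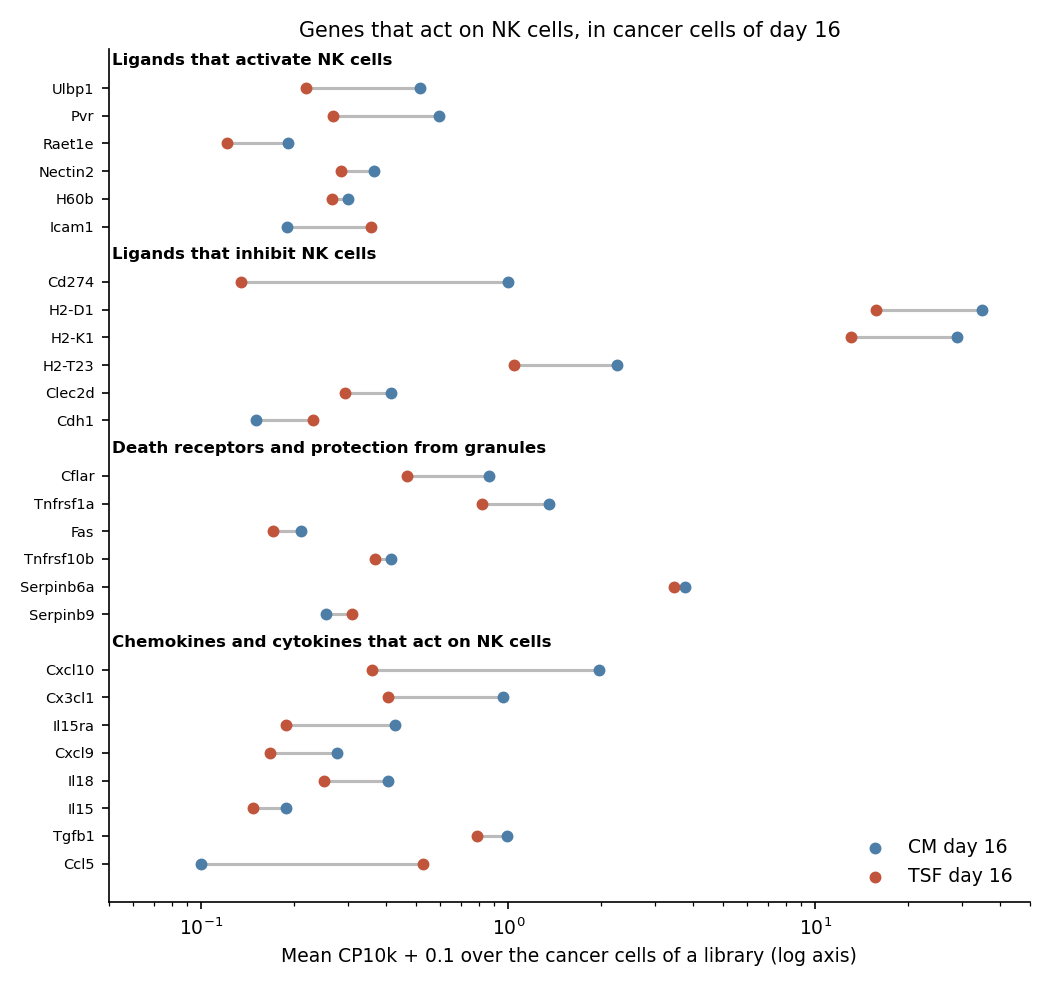
Mean CP10k plus 0.1 (log axis) of the 26 genes that act on NK cells and passed the filter, over the cancer cells of CM (blue, 29 cells) and TSF (red, 139 cells) at day 16, grouped by role, with a line joining the values of a gene. Cd274 and Cxcl10 have the largest differences toward CM, and Ccl5 is listed at 0 in CM.

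After the authors' correction for ambient RNA, RNA of NK cells themselves was nearly absent from the cancer cells. That correction subtracts RNA of other cells in the suspension, and its part in these low values was not tested. Of 11 NK genes, 8 had no UMI in any cancer cell of either library, among them Nkg7, Klrb1c and Ncr1. Gzma was seen in 1 of 29 CM cells and 3 of 139 TSF cells. The summed level of the 11 genes was 0.0442 CP10k in CM and 0.0241 in TSF. Of 6 T cell markers, 4 had no UMI in either library, and their sum was 0.0188 CP10k in CM and 0.00987 in TSF. Neutrophil markers were at 0 in CM and summed to 1.03 CP10k in TSF over 4 genes. In TSF each of them was seen in only 2 to 7 of 139 cells (1.44 to 5.04%). In CM, 0 of 29 cells allows a share of up to 11.9%, so a difference was not detectable with this number of cells. The part of neutrophil RNA in the values of chemokine genes was not tested.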

How the data were processed

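Libraries were made by the authors with the 10x Genomics 5' chemistry from dissociated lungs pooled from 3 mice per group. Cell Ranger mapped reads to the mm10 genome (GRCm38.p6), to which the CD90.1 reporter had been appended. Per the submitters' processing notes, Seurat 4.1.0 was used, and the study's methods add a customised SoupX correction for ambient RNA, UMAP, and 183 fine clusters annotated by hand. The deposited cell table gives UMI counts and genes per cell after that correction, the percent of mitochondrial UMIs, classes, clusters and map coordinates (a score without unit). The lowest values in it are 800 UMIs and 202 genes, and the highest mitochondrial share is 9.99%. For cancer cells, the deposited table gives, per gene, the mean CP10k and how many cells, also as a percent, had a UMI. By the study's methods, the ambient correction came before these values too. Its fold changes and p-values, and the deposited enrichment scores, are the authors' own comparison and were not used. The cell table also holds 2 libraries whose names match no sample described, and they were left out.

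NK cells were taken by class. Doublets and unknown cells were left out, which kept 22118 cells, unless stated. Annotated cells per library ranged from 3567 to 5113, and their summed UMIs from 11361766 to 19626922. Shares have exact Clopper-Pearson intervals. Ratios of shares have intervals conditional on the sum of the counts, which treat the cells counted as rare events. Such intervals are close for NK shares of annotated cells and too wide for large shares, as those of fine clusters. Ratios per T, B or cancer cell have exact conditional intervals of an odds ratio. For TSF at day 11 the value is the mean of a and b and the interval comes from pooled counts. No expression matrix was used, so cells were not thinned, and cells of 1500 to 3000 UMIs served to narrow the range of depth. Coordinates are from GENCODE M21 on GRCm38. Named genes were all members of lists of NK markers, ligands, death receptors and cytokines. Ligands, receptors and cytokines in under 10% of cancer cells of both libraries were counted and not described, and markers were given at any level. The members and lists were chosen with earlier results of these data known. The tools were scipy 1.17.1 for intervals, pandas 2.3.3 and numpy 2.4.6 for tables, and matplotlib 3.10.9 for plots, under Python 3.11.15.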

Additional observations from a re-analysis of the deposited data

Results flagged for a closer look

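The NK share of annotated cells was higher after TSF than after CM in both libraries of day 11 and lower at day 16. The log2 ratio of TSF to CM at day 16 minus that at day 11 was -0.93. The difference between days was not tested, since each group had 1 sample, and the ratio of day 16, 0.940 (interval 0.728 to 1.22), did not differ from 1 beyond counting error. Per T cell the ratio was above 1 at both days.

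The median mitochondrial percent of NK cells was lower after TSF in both libraries of day 11 and higher at day 16. This difference, 0.67 on the log2 scale, was not tested either. T and B cells of the TSF library of day 16 also had a higher mitochondrial percent than those of the CM library.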

How the results depend on the processing

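Of 189 alternative values for 35 results, 160 stayed within the interval or spread of the main value. Of 168 alternative ratios, 10 fell on the other side of 1 from the main value, and for 4 of these the main interval left out 1. The 4 were the NK share of TSF lungs at day 16 over day 11, which became 1.04 without granulocytes, 1.08 without granulocytes and cancer cells, 1.11 among lymphocytes and 1.43 per B cell. With immune cells as the denominator it was 0.611. The cause was not tested. The ratio of TSF to CM at day 16, whose main interval includes 1, crossed 1 in 5 settings and became 1.25 without granulocytes, 1.29 without granulocytes and cancer cells, 1.43 among lymphocytes, 1.48 per T cell, 1.51 per B cell, and it was 0.639 among cells with at least 2000 UMIs. The remaining one was the median of UMIs in TSF, day 16 over day 11, at 1.02 and, without library a, 0.983. For the NK share, the log2 ratio of TSF to CM at day 16 minus that at day 11 became -0.37 among lymphocytes, -0.40 per T cell and -0.39 per B cell. NK cells per cancer cell in TSF over CM at day 16 became 0.159 among cells with at least 2000 UMIs. That cut kept unequal parts of the NK cells of CM and TSF, and the part of depth was not tested. For NK depth, means over cells in place of medians gave ratios of TSF to CM at day 16 of 0.891 for UMIs, 0.840 for genes and 1.20 for mitochondrial percent, and ratios of day 16 to day 11 in CM of 1.03, 1.18 and 0.845. At 1500 to 3000 UMIs the ratios for genes were 0.989 for TSF to CM at day 11, 0.894 at day 16 and 1.17 for day 16 to day 11 in CM. Of the genes acting on NK cells, 0 were at least 2-fold higher and 3 lower with a pseudocount of 1 CP10k, where 0.127% and 0.529% of all genes were, and 3 were higher and 14 lower at 1.5-fold, where 7.33% and 17.3% were. With the filter in each library, 0 were higher. All alternatives for fine clusters, the filter in each library, the limit of 5000 UMIs and the denominator of B cells were chosen after seeing the data. No paired analysis was possible because only TSF at day 11 has more than 1 library.

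Depth limits the smaller groups most. CM of day 11 gave 78 NK cells and 6 cancer cells, and cluster 66 gave 5 cells in CM of day 16. Intervals and floors, set at 3 counts, cover counting error only.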
